A study of Rattus norvegicus with 14 samples.

Results

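The miR-322, miR-503, miR-351, miR-542 and miR-450a precursors form a microRNA cluster on the X chromosome, and their mature arms were followed here in the serum of rat pups. Members were taken by name: every listed mature miRNA of these 5 precursors, both arms where present. This gave 10 members among the 375 mature miRNAs of the deposited count table, with both arms of all 5 precursors, and all 10 were among the 357 miRNAs that passed the filter on low counts. Serum came from female Long Evans pups on postnatal day 8, with 1 pup taken per litter, so each library is a separate animal. In the Control group (8 libraries) the dams drank water with 0 ppm of propylthiouracil (PTU), and the pups are labelled euthyroid. In the PTU group (6 libraries) the dams drank 3 ppm of PTU, an inhibitor of thyroid hormone production, and their pups are labelled hypothyroid. Exposure was by way of the dam during gestation or nursing, the dams themselves being only mildly hypothyroid per the labels. The comparison is of cell-free RNA in serum with and without the maternal drug.

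The cluster is transcribed as a long primary RNA that is cut into hairpins, and each hairpin can give a mature miRNA from its 5p and from its 3p arm. A mature miRNA loads into an Argonaute protein and pairs with messenger RNAs mainly through its seed, the bases next to its 5′ end. miR-322, the rodent counterpart of human miR-424, and miR-503 are known from mouse muscle precursor cells as miRNAs that rise when cells leave the cell cycle and differentiate. miR-351 carries the seed of the miR-125 family, and miR-542-3p is known from human cells to act on the messenger of survivin, an inhibitor of cell death. Serum holds miRNAs released from many tissues, so a serum level does not name its source, and a smaller number of releasing cells cannot be told apart from less release per cell.

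The mature sequences show which members share targets by seed and which arms can be told apart by sequencing. They are RefSeq sequences of the rat assembly GRCr8, read from the minus strand of the X chromosome, 5′ to 3′. Capitals mark the seed, bases 2 to 8, and all 10 members matched an entry.
miR-322-5p: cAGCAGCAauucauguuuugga
miR-322-3p: aAACAUGAagcgcugcaaca
miR-503-5p: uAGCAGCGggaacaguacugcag
miR-503-3p: gGAGUAUUguuuccgcugccugg
miR-351-5p: uCCCUGAGgagcccuuugagccuga
miR-351-3p: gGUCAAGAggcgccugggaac
miR-542-5p: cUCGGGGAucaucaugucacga
miR-542-3p: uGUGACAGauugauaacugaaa
miR-450a-5p: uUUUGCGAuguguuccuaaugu
miR-450a-3p: uAUUGGGAacauuuugcauaa

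No seed was shared between members. The seed of miR-322-5p was shared with 4 other listed miRNAs, miR-15b-5p, miR-16-5p, miR-195-5p and miR-497-5p. The seed of miR-351-5p was shared with miR-125a-5p and miR-125b-5p, and the other 8 members shared a seed with no other listed miRNA among the 343 that had a sequence. miR-503-5p missed the miR-16 seed by a single base, A8G with miR-16-5p as the reference and positions counted from 1 at the 5′ end. The relatives outside the cluster with which the members are compared below read as follows, again with the seed in capitals and from RefSeq GRCr8.
miR-15b-5p: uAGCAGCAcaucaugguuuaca
miR-16-5p: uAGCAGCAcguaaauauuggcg
miR-125b-5p: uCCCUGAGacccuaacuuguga

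By RefSeq's annotation of GRCr8, the cluster's genes lie between Hprt1 and Plac1, in the order Mir450a1, Mir450b-1, Mir542, a long non-coding RNA gene, Mir351, Mir503 and Mir322. Since all are on the minus strand, Mir322 comes first in the direction of transcription. Only Mir450b-1 of these miRNA genes is not represented among the members. Its 5p arm, miR-450b-5p, was not among the listed miRNAs and could not be analysed here. That arm has the same first 20 bases as miR-450a-5p, so reads of the pair could be divided differently by another counter. The counts of miR-450a-5p are uncertain to that extent.
miR-450a-5p: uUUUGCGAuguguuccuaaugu
miR-450b-5p: uUUUGCGAuguguuccuaaua

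The hairpin of miR-322 is printed because its arms behaved differently in these libraries. Capitals mark the mature arms, the 5p arm first.
Mir322: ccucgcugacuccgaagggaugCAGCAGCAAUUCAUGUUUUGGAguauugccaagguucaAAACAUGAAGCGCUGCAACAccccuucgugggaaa

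Total counts over the listed miRNAs ran from 452961 to 1935825 in Control and from 818999 to 2119979 in PTU libraries. Levels are given as CPM, counts relative to a fixed library size after TMM scaling (a trimmed mean of log ratios between libraries). A sequencing read covers a whole mature miRNA, so CPM was not divided by length. PTU replicate 6 stood apart: 18 of the 357 miRNAs (5.04%) were more than 2-fold above every other library there, against at most 1 in any of the 13 others. Of the cluster, miR-322-5p was among those 18, so log2 fold changes of the members are given with and without this library. In serum, miRNAs of red cells and other blood cells are mixed with those of tissues. The summed level of the 3 erythroid markers tested (miR-451-5p, miR-144-3p and miR-144-5p, of 4 chosen) was 1768 to 6012 CPM in Control, 2822 to 12425 CPM in PTU replicates 1 to 5 and 19140 CPM in PTU replicate 6. Of that last sum miR-451-5p made up 17616 CPM, its highest value of the 14 libraries. miR-144-3p (941 CPM) and miR-144-5p (583 CPM) ranked only 3 and 4 in PTU replicate 6. The 3 platelet and leukocyte markers summed to 7420 to 9566 CPM in Control, 7273 to 16386 CPM in PTU replicates 1 to 5 and 15217 CPM in PTU replicate 6, where miR-223-3p and miR-126a-3p were 1.36 and 1.49 times the next highest library. The remaining marker, miR-142-3p, was at 3111 CPM in PTU replicate 6, 0.304 times the highest other library. The 3 striated muscle markers summed to 411872 to 548018 CPM in Control, 384176 to 588751 CPM in PTU replicates 1 to 5 and 352875 CPM in PTU replicate 6, the lowest of the 14. miR-206-3p was also lowest there, while miR-1-3p was lower in Control replicate 5 and miR-133a-3p in Control replicate 6. The liver marker miR-122-5p was at 1672 CPM in PTU replicate 6, within its range elsewhere. Their part in the results was not tested.

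The cluster took a small share of serum miRNA, and no member passed the test between the groups. The 10 members together made up between 0.729% and 0.903% of the counts in the 8 Control libraries, with a median of 0.770%. In the 6 PTU libraries they made up between 0.818% and 1.05%, with a median of 0.877%. The ranges overlapped, and the highest share was that of PTU replicate 6. Without miR-322-5p, PTU replicate 6 had the lowest share of all 14 libraries, 0.651%, so its high total came from that arm.

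The most abundant member was miR-351-5p, with a mean of 2150 CPM over the 14 libraries and rank 47 of 357. miR-542-3p (1595 CPM) and miR-542-5p (1269 CPM) followed, then miR-503-5p (930 CPM), miR-322-3p (785 CPM), miR-322-5p (742 CPM) and miR-503-3p (518 CPM). miR-450a-5p (246 CPM) and miR-351-3p (112 CPM) were lower, and miR-450a-3p was the scarcest at 10.6 CPM, rank 344. The mean log2 difference was smaller than its SD over libraries for 4 neighbouring pairs in this order: miR-351-5p with miR-542-3p, miR-542-3p with miR-542-5p, miR-322-3p with miR-322-5p, and miR-322-5p with miR-503-3p. The log2 difference within the first of these pairs was 0.39 ± 0.70 (SD, n = 14). By contrast, miR-542-5p was above miR-503-5p, miR-503-3p above miR-450a-5p, miR-450a-5p above miR-351-3p, and miR-351-3p above miR-450a-3p in 14 of 14 libraries.

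**Figure D1:**
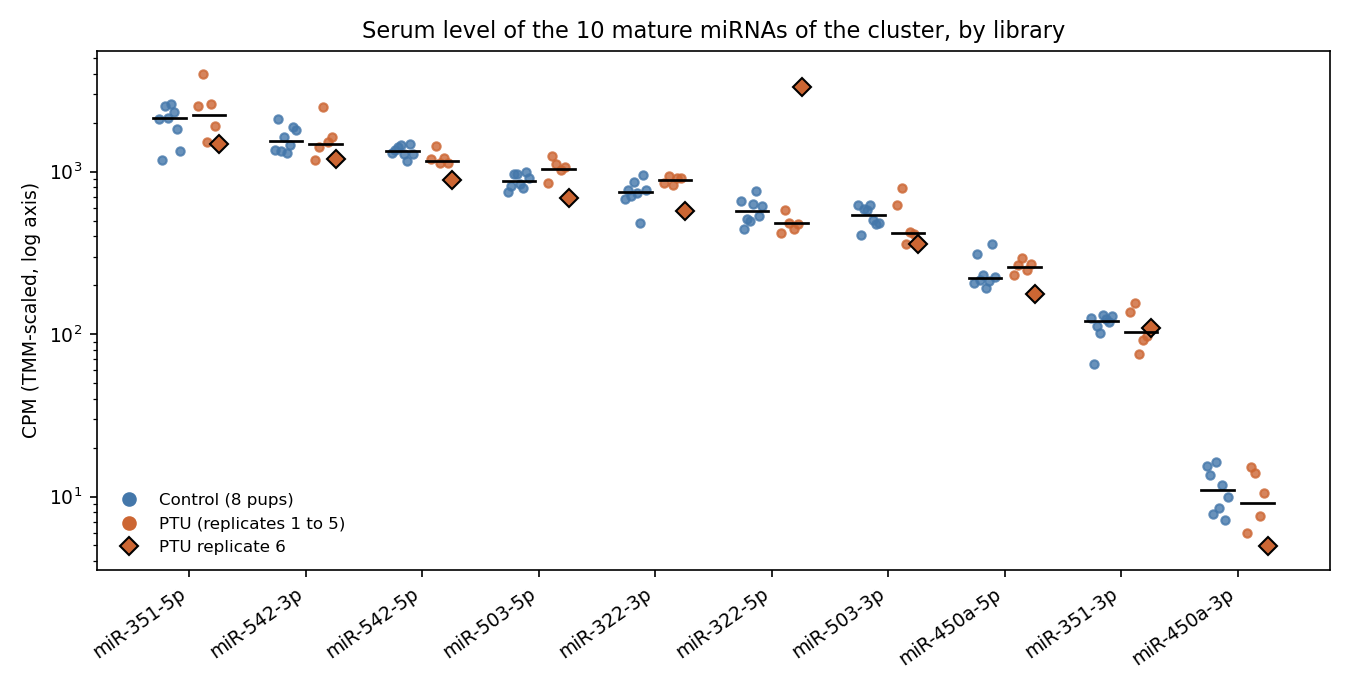
Level of each cluster member in every library (vertical axis, TMM-scaled CPM on a log scale; blue points Control, orange points PTU, diamonds PTU replicate 6, bars group medians). The groups overlap for all 10 members, and PTU replicate 6 is far above the other libraries for miR-322-5p at 3338 CPM while it is the lowest of the 14 for 5 other members.

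Between PTU and Control, 0 of the 10 members passed a false discovery rate of 0.05 (quasi-likelihood test of edgeR, adjusted by Benjamini-Hochberg across the 357), where 0% of all tested miRNAs were called. At an unadjusted p under 0.05 there were also 0 of 10, where 13.2% of all tested miRNAs (47) lay under that threshold. DESeq2 called 0 members, edgeR's likelihood ratio test 0 and limma-voom 0. The median log2 fold change of the members was -0.0042, with 5 of 10 above 0, beside a median of 0.03 and 206 of 357 above 0 for all tested miRNAs. Another 29 tested miRNAs of the X chromosome had a median of 0.06, with 19 above 0 and 0 called. The groups overlapped for all 10 members, while 0.56% of the tested miRNAs did not overlap. Upper-quartile factors moved the median of all miRNAs to -0.08 and that of the members to -0.10, and scaling with no factors moved them to 0.12 and 0.07, so the member median stayed below that of all miRNAs under these scalings. The number of members above 0 moved with that shift, to 4 of 10 and 7 of 10. The order of the medians turned in some other settings. Without Control replicate 7 they were 0.056 for all miRNAs and 0.081 for the members, and without PTU replicate 1 they were 0.039 and 0.049.

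Of the miR-322 hairpin, the 5p arm carries the miR-15/16 seed. miR-322-5p ranged from 445 to 760 CPM in the Control group, with a median of 572 CPM. In the PTU group it ranged from 421 to 3338 CPM with a median of 482 CPM. PTU replicate 6 alone was above the Control range, and 2 of 6 PTU libraries were above the Control median. The means were 580 ± 104 CPM in Control (SD, n = 8) and 958 ± 1168 CPM in PTU (SD, n = 6). The fitted log2 fold change of miR-322-5p came to 0.73 with an SE of 0.41, a 95% interval from -0.15 to 1.60 and 0.451 as edgeR's adjusted p. Without PTU replicate 6 the PTU mean was 482 ± 61.8 CPM (SD, n = 5) and the log2 fold change turned to -0.30 ± 0.14 (SE; unadjusted p = 0.0507, adjusted p = 0.351, edgeR). DESeq2 gave miR-322-5p no adjusted p, and limma-voom with quality weights gave a log2 fold change of -0.12. Of the 14 fits that each left out 1 library, only the fit without PTU replicate 6 changed the sign.

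miR-322-3p, the other arm, went a different way in the same libraries. It ranged from 483 to 959 CPM in Control with a median of 751 CPM, and from 571 to 939 CPM in PTU with a median of 882 CPM. PTU replicate 6 was the lowest PTU library, and the other 5 averaged 889 ± 46.3 CPM (SD, n = 5), all above the Control median. The log2 fold change was 0.16 ± 0.16 (SE; adjusted p = 0.667, edgeR), and 0.22 ± 0.14 without PTU replicate 6 (adjusted p = 0.504, edgeR). It fell to 0.09 when Control replicate 6, the lowest of the 14, was left out.

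Of the miR-503 hairpin, miR-503-5p is the arm that differs from the miR-16 seed by a single base. It ranged from 747 to 1002 CPM in Control with a median of 875 CPM, and from 684 to 1249 CPM in PTU with a median of 1041 CPM. PTU replicate 2 was highest and PTU replicate 6 lowest of all 14. edgeR gave miR-503-5p a log2 fold change of 0.18 with an SE of 0.14, a 95% interval from -0.12 to 0.48 and an adjusted p of 0.585. Without PTU replicate 6 it was 0.23 ± 0.12 (unadjusted p 0.0673, adjusted p 0.422 by edgeR), and without PTU replicate 2 it was 0.10. miR-503-3p ranged from 407 to 624 CPM in Control (median 539 CPM) and from 358 to 792 CPM in PTU (median 421 CPM). Its PTU values spread to both sides of the Control range, and the log2 fold change was -0.11 ± 0.19 (SE; adjusted p = 0.868, edgeR). It was -0.08 without PTU replicate 6. Over the 14 fits that each left out 1 library it ran from -0.30 without PTU replicate 2 (edgeR's adjusted p 0.381) to -0.04 without PTU replicate 3, and moves of over 1.5 times also came from omitting Control replicates 2 or 4, or any of PTU replicates 1, 4 and 5.

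miR-351-5p, with the miR-125 seed, spread widely in both groups. It ranged from 1182 to 2603 CPM in Control (median 2130 CPM) and from 1483 to 3970 CPM in PTU (median 2230 CPM). On the log2 scale PTU exceeded Control by 0.22, with an SE of 0.23, a 95% interval from -0.27 to 0.71 and 0.706 as edgeR's adjusted p. That difference came to 0.0028 (edgeR's adjusted p 0.994) when PTU replicate 2, at 3970 CPM, was left out. Omitting Control replicate 2 gave 0.13, omitting Control replicate 8 gave 0.14, and omitting PTU replicate 6 gave 0.28. miR-351-3p ranged from 65.1 to 132 CPM in Control and from 75.7 to 156 CPM in PTU, with a log2 fold change of -0.03 ± 0.19 (SE) and of -0.06 without PTU replicate 6. Its sign turned in 5 of the 14 fits that each left out 1 library.

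The miR-542 arms were next in abundance, and the 5p arm was the steadiest member. miR-542-5p had the smallest CV in Control (8.07%), 1345 ± 109 CPM (SD, n = 8), and averaged 1167 ± 175 CPM in PTU (SD, n = 6). It ranged from 1155 to 1476 CPM in Control (median 1337 CPM) and from 891 to 1434 CPM in PTU (median 1167 CPM), with 1 of 6 PTU libraries above the Control median. By edgeR the log2 fold change of miR-542-5p came to -0.21 with an SE of 0.12, a 95% interval from -0.46 to 0.05 and an adjusted p of 0.455, and to -0.17 ± 0.10 without PTU replicate 6. By DESeq2 it was the member with the lowest unadjusted p, 0.0259, with an adjusted p of 0.258. miR-542-3p, the arm known to act on survivin in human cells, ranged from 1301 to 2104 CPM in Control and from 1171 to 2486 CPM in PTU. Its log2 fold change was -0.03 ± 0.18 (SE; adjusted p = 0.960, edgeR) and 0.0094 without PTU replicate 6, and its sign turned in 4 of the 14 fits that each left out 1 library.

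The miR-450a arms differed most in abundance. miR-450a-5p ranged from 193 to 357 CPM in Control (median 220 CPM) and from 177 to 295 CPM in PTU (median 259 CPM), and the groups differed by 0.02 ± 0.17 on the log2 scale (SE; edgeR's adjusted p 0.967) and by 0.0750 without PTU replicate 6. The sign turned in 7 of the 14 fits that each left out 1 library. Of the PTU libraries 5 of 6 lay above the Control median, and PTU replicate 6 was the lowest of all 14. miR-450a-3p had only 4 to 29 counts per library. The exact Poisson interval for its 4 counts in Control replicate 5 is 1.09 to 10.2 counts, which covers counting error only, and its log2 fold change was -0.21 ± 0.29 (SE). Omitting PTU replicate 6 gave -0.09, as did omitting Control replicate 4. Omitting PTU replicate 1 gave -0.12, PTU replicate 4 gave -0.14, PTU replicate 2 gave -0.35 and PTU replicate 3 gave -0.38.

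The ratio of the arms of a hairpin compares a pair of counts within a library and does not depend on scaling between libraries. miR-351 and miR-450a gave mostly their 5p arms, with median 5p to 3p ratios of 19.1 and 22.2 over the 14 libraries. miR-503 had a median ratio of 1.78, miR-542 of 0.790 and miR-322 of 0.602, so the 3p arm was the more frequent for miR-542 and miR-322. For miR-322 the ratio was 0.552 to 1.57 in the 8 Control libraries. It was 0.484, 0.495, 0.525, 0.584 and 0.620 in PTU replicates 4, 1, 5, 3 and 2, and 5.84 in PTU replicate 6. Apart from that animal the 5p arm was in the majority only in Control replicate 6. In PTU replicate 6 the 5p arm made up 85.4% of 5543 counts of both arms (exact Clopper-Pearson 95% interval 84.4% to 86.3%, counting error only). In Control replicate 6 it made up 61.1% of 839 counts (57.8% to 64.5%), and in the other 12 libraries between 32.6% and 49.0%.

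**Figure D2:**
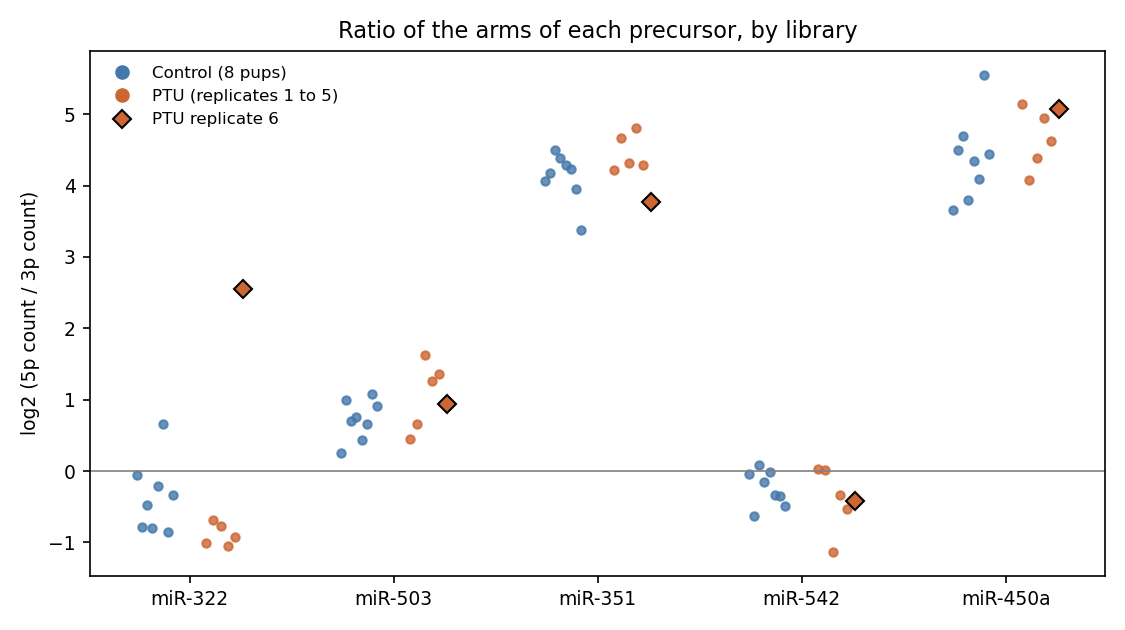
Log2 ratio of the 5p to the 3p count of each precursor in every library (blue Control, orange PTU, diamonds PTU replicate 6; the line marks equal arms). For miR-322, PTU replicate 6 lies at 2.55 while PTU replicates 1 to 5 lie between -1.05 and -0.69, and for the other precursors that library is within the range of the rest.

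Over the 94 precursors with both arms tested, 0 arm ratios differed between PTU and Control at a false discovery rate of 0.05 (exact two-sided permutation test over all 3003 splits, Benjamini-Hochberg over 94), with 10 (10.6%) at an unadjusted p under 0.05. None of the 5 cluster precursors was among those 10. The log2 ratio of miR-322 was -0.36 ± 0.50 in Control (SD, n = 8) and -0.32 ± 1.41 in PTU (SD, n = 6), a difference of 0.04 (exact permutation p = 0.968). Without PTU replicate 6 the PTU mean was -0.89 ± 0.15 (SD, n = 5), with 5 of 5 PTU libraries under the Control median. That left a difference of -0.53 (exact permutation p = 0.0350, adjusted p = 0.414 over 94). The omitted library holds the extreme of this same ratio and was singled out after the values were seen, so this p is descriptive. The difference was 0.32 for miR-503 (exact permutation p = 0.120, adjusted 0.468), 0.23 for miR-351, 0.32 for miR-450a and -0.15 for miR-542. Single libraries moved these by over 1.5 times: miR-503 to 0.21 without PTU replicate 3, and miR-450a to 0.49 without Control replicate 7. For miR-351, omitting Control replicate 8 gave 0.12, PTU replicate 4 gave 0.13 and PTU replicate 6 gave 0.34. For miR-542, omitting PTU replicate 3 gave -0.0052, and PTU replicate 1 or 2 gave -0.24. With all libraries, the lowest adjusted p of these 4 was that of miR-503. Groups overlapped for all 5, while 1 of the 94 precursors (1.06%) did not overlap.

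Set beside all 94 precursors, the miR-322 ratio was the most variable. Its SD over the 14 libraries was 0.95 on the log2 scale, rank 1 of 94, where the median precursor had 0.48. The gap between its highest library and the next was 1.89 on the log2 scale, or 3.71-fold, also rank 1, and the second largest gap was 1.40. Without PTU replicate 6 its SD was 0.48, rank 41, so the excess over other precursors lay in that library.

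PTU replicate 6 was high for 1 member and below the median for the 9 others. miR-322-5p was 6.58 times the median of the 13 other libraries and 4.39 times the highest of them, rank 4 among the 357 miRNAs by that gap. The other 9 members were at 0.467 to 0.913 times the median of the other libraries. The share of all tested miRNAs below their median there was not counted. Outside the cluster, miR-206-3p, miR-1-3p and miR-133a-3p were likewise at 0.774, 0.700 and 0.770 times their medians. The erythroid, platelet, leukocyte and liver markers tested were above theirs. This library was the lowest of the 14 for 5 of the 10 members, miR-503-5p, miR-503-3p, miR-542-5p, miR-450a-5p and miR-450a-3p, where it was the lowest for 18.2% and the highest for 18.5% of all tested miRNAs. The miRNAs with larger gaps in PTU replicate 6 were miR-29b-3p, miR-484 and miR-141-3p, none of the cluster. Of the miR-322-5p seed relatives, miR-15b-5p was also above all other libraries there, at 1488 CPM against 317 to 687 CPM. miR-16-5p was at 62128 CPM, within its range of 59503 to 140946 CPM in the other libraries, and miR-195-5p and miR-497-5p were within theirs. A common gauge of red cell lysis sets miR-451-5p against miR-23a-3p; on the log2 scale it was 1.24 in PTU replicate 6, below the 1.54 of PTU replicate 3 and 1.53 of PTU replicate 4, whose miR-322-5p was at 484 and 441 CPM. Both parts of that ratio were higher there than in any other library, miR-451-5p 2.09 times and miR-23a-3p 1.86 times the next highest. In Control replicate 6, the library with the next highest miR-322 arm ratio, it was -1.23, the lowest of all. The gauge ran from -1.23 to 0.58 in Control and from -0.51 to 1.54 in PTU libraries. PTU replicates 3, 4, 5 and 6 lay above that Control range, and its part in the differences between the groups was not tested. The part of any of these in the miR-322-5p value was not tested.

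**Figure D3:**
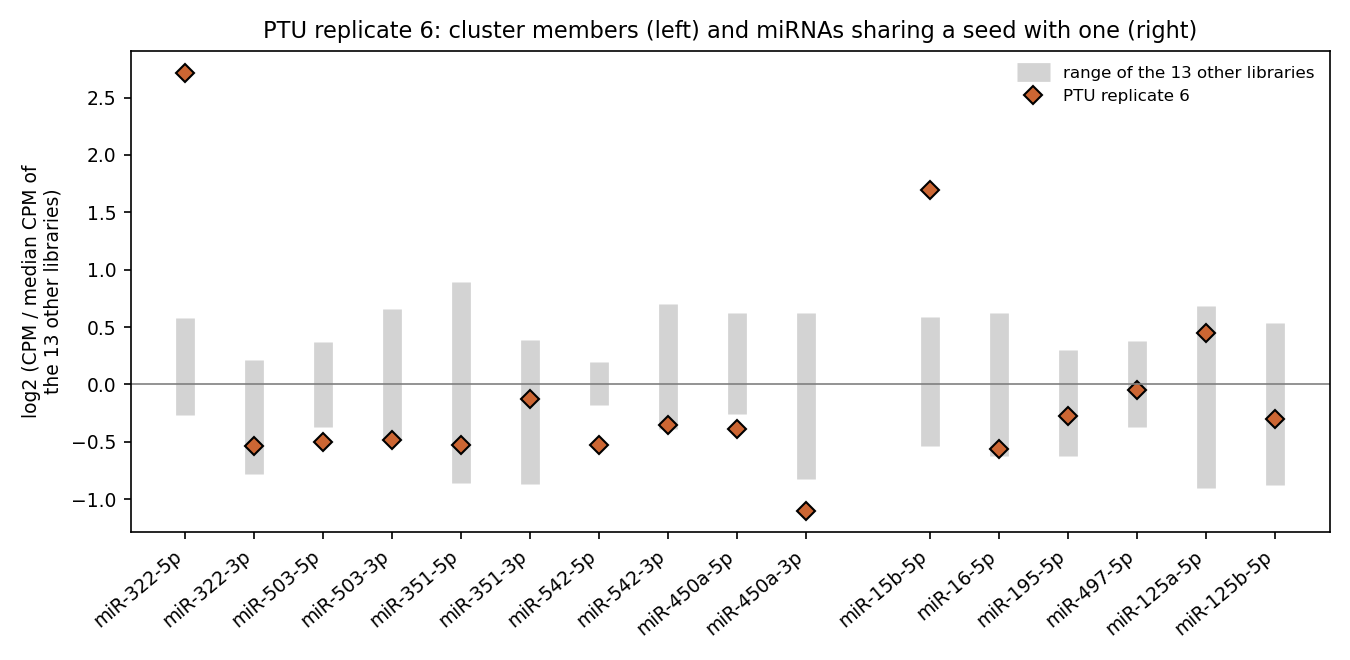
Level in PTU replicate 6 relative to the median of the 13 other libraries (vertical axis, log2; diamonds) and the range of those 13 (grey bars), for the cluster members in the direction of transcription and, at the right, for miRNAs that share a seed with miR-322-5p or miR-351-5p. miR-322-5p and miR-15b-5p lie above the range, and the other 9 members lie below the median.

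Members of a shared transcript did not all vary together over the animals. Among the 45 pairs of members the median Spearman rho of log2 CPM over 14 libraries was 0.187 (quartiles -0.108 and 0.393), beside a median of -0.0022 over all 63546 pairs of tested miRNAs. 0 of the 45 pairs passed an adjusted p of 0.05 by both Pearson and Spearman (permutation test, 100000 resamples, Benjamini-Hochberg over the 3515 pairs of a member with any tested miRNA), where 0.654% of the 3515 did. With PTU replicate 6 left out and filter and scaling redone (20000 resamples), 2 of the 45 passed. These were miR-503-3p with miR-542-3p (rho -0.907, r -0.826) and with miR-351-3p (rho 0.874, r 0.822). The share of all pairs passing in that setting was not counted. With the scaling over 14 libraries kept, as for the other correlations given without named libraries, they had rho -0.835 (r -0.778) and 0.846 (r 0.819). Over all 14 libraries, 10 of 45 pairs had an unadjusted Spearman p under 0.05, where 13.3% of the 3515 lay under it. The highest rho joined miR-322-3p and miR-503-5p, from adjacent hairpins, at 0.829 (permutation p = 0.0005, adjusted 0.0586) with a Pearson r of 0.748 (permutation p = 0.00143, adjusted 0.0666), and r was 0.715 without Control replicate 6 and PTU replicate 6. Within Control their r was 0.667 and within PTU 0.851. Next came miR-503-3p with miR-351-3p (rho 0.798, r 0.750, permutation p = 0.00102 and 0.00154, adjusted 0.0717 and 0.0694) and miR-450a-5p with miR-542-3p (rho 0.771, r 0.752, permutation p = 0.00176 and 0.00184, adjusted 0.0896 and 0.0765). Without the 2 farthest libraries r was 0.773 and 0.706 for these. For the latter pair r was 0.844 within Control and 0.755 within PTU.

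The arms of a hairpin were not the closest partners of each other. miR-322-5p and miR-322-3p had a rho of -0.578 (permutation p = 0.0338, adjusted 0.317) and a Pearson r of -0.616 (permutation p = 0.0470, adjusted 0.295), and leaving out PTU replicate 6 gave an r of -0.680. Leaving out both Control replicate 6 and PTU replicate 6, the libraries farthest from the median, gave an r of -0.418, so the relation rests in part on those libraries. Within Control r was -0.702, and within PTU it was -0.941 with a rho of -0.200. miR-503-5p and miR-503-3p had a rho of -0.0154, miR-542-5p and miR-542-3p of 0.134, miR-450a-5p and miR-450a-3p of 0.182, and miR-351-5p and miR-351-3p of 0.477. The last was the highest of the 5 hairpins (r 0.639, permutation p = 0.0138 for r and 0.0880 for rho, adjusted 0.185 and 0.449), and its r was 0.260 without Control replicate 2 and PTU replicate 2. CPM values share the library scaling, and a scarce arm such as miR-450a-3p carries more counting error, so these values are descriptive.

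**Figure D4:**
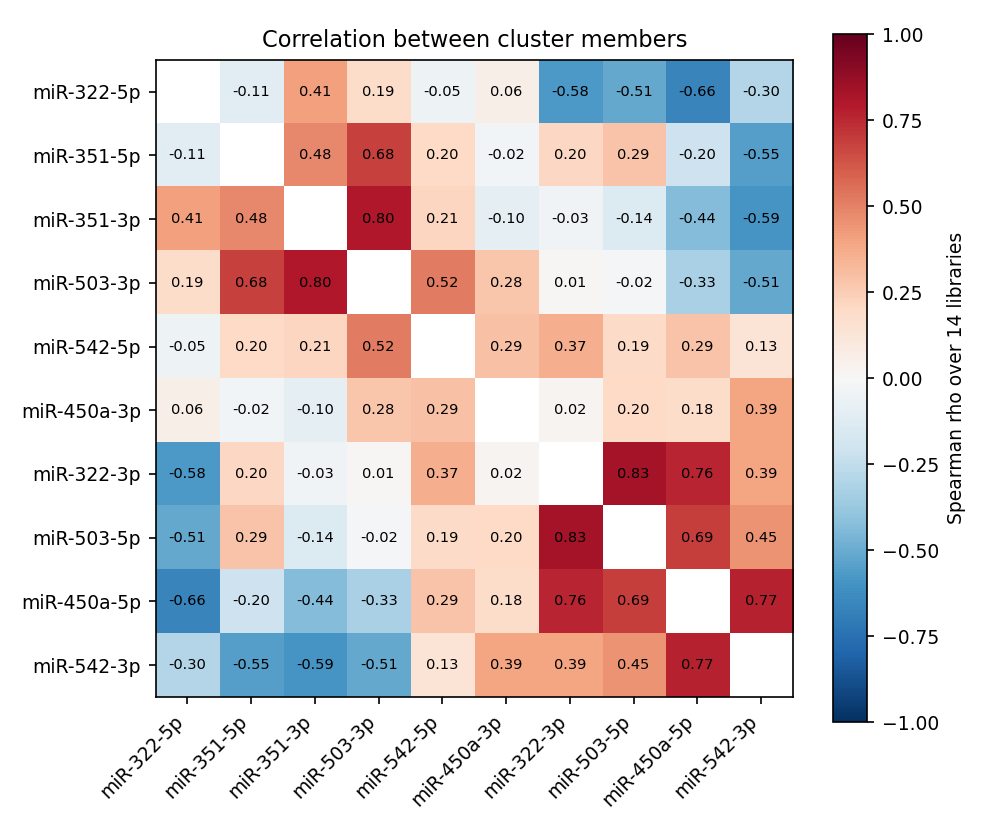
Spearman rho between cluster members over the 14 libraries (colour and numbers, from -1 blue to 1 red). miR-322-3p, miR-503-5p, miR-450a-5p and miR-542-3p form a positive block with values from 0.393 to 0.829, and miR-322-5p has negative values with each of them, down to -0.662 with miR-450a-5p.

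4 of 10 members varied with the library's total count at an unadjusted Spearman p under 0.05, where 26.3% of all tested miRNAs did. miR-503-3p (rho -0.771, r -0.633), miR-351-5p (rho -0.758, r -0.624) and miR-351-3p (rho -0.662, r -0.723) were lower in libraries with larger totals, and miR-542-3p was higher (rho 0.666, r 0.742). The permutation p of rho was 0.00182, 0.00257, 0.0123 and 0.0109 in that order. Adjusted over 357 miRNAs, each of the 4 passed 0.05 by a single measure. The adjusted p of rho was 0.0314 for miR-503-3p and 0.0382 for miR-351-5p, and the adjusted p of r was 0.0459 for miR-351-3p and 0.0391 for miR-542-3p. By both measures 0 of 10 members passed, where 5.04% of all tested miRNAs did. Without the libraries of the smallest and the largest total, Control replicate 5 and PTU replicate 3, r was -0.510, -0.599, -0.663 and 0.630 in that order. Within the groups r kept its sign for the 4 members, for example -0.779 in Control and -0.674 in PTU for miR-351-5p. The part of depth in the correlations of these members, with each other or with miRNAs outside the cluster, was not tested.

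Outside the cluster, the miRNA with the highest Spearman rho with miR-351-5p was miR-125b-5p, which has the same seed and the same first 8 bases. Over 14 libraries their log2 CPM had a rho of 0.934 (permutation p = 2e-05, adjusted 0.0211) and a Pearson r of 0.875 (permutation p = 8e-05, adjusted 0.0165). Without Control replicate 2 and PTU replicate 2, the libraries farthest from the median of miR-351-5p, r was 0.912, and it was 0.837 within Control and 0.929 within PTU. let-7d-3p (rho 0.859, r 0.855) and miR-668 (rho 0.846, r 0.894) came next by rho, and miR-668 had the higher r. miR-125a-5p, which has the same seed, was not among these 3. miR-125b-5p was chosen as the highest of many, so its values describe the order and not an independent result. miR-351-5p had a rho of -0.758 with the library's total count, and the part of depth in these correlations was not tested. Aligned from the 5′ end, the printed sequences of miR-351-5p and miR-125b-5p had 10 of 22 bases the same, and the seed accounts for most of these.

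**Figure D5:**
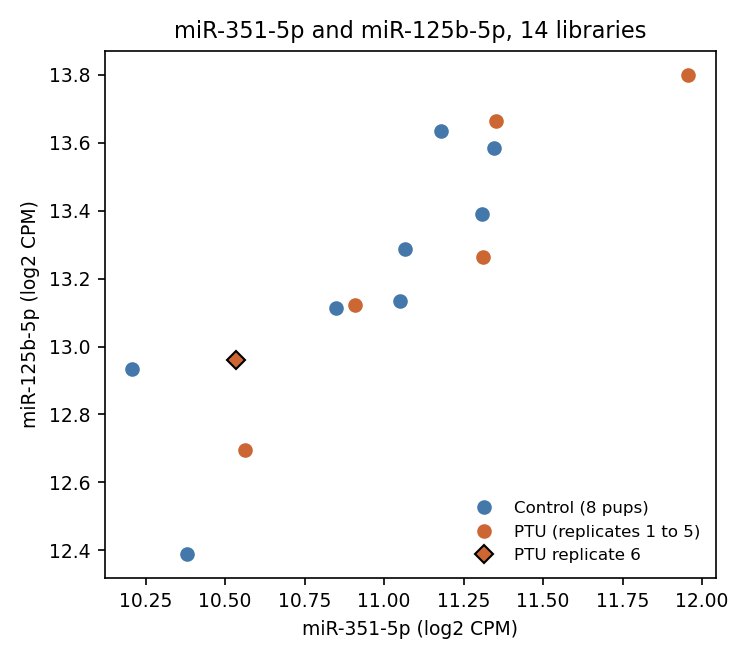
miR-351-5p (horizontal axis) and miR-125b-5p (vertical axis), both in log2 CPM, in the 14 libraries (blue Control, orange PTU, diamond PTU replicate 6). The points lie along a rising line with a Spearman rho of 0.934, and PTU replicate 6 lies among the others.

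For the more abundant arm of each other hairpin, the miRNAs outside the cluster were ordered by Spearman rho over the 14 libraries, and closest means highest in that order. miR-322-3p was closest to miR-329-3p (rho 0.899, r 0.912, permutation p = 3e-05 for rho and 1e-05 for r, the smallest value the resampling can give, adjusted 0.0211 and 0.0088), then miR-214-3p (rho 0.851) and miR-380-3p (rho 0.793). For the first, r was 0.833 without Control replicate 6 and PTU replicate 6, 0.894 within Control and 0.924 within PTU. miR-503-5p was closest to the same miR-329-3p (rho 0.749, r 0.697, permutation p = 0.00322 and 0.00557, adjusted 0.109 and 0.130; r 0.592 without PTU replicates 2 and 6), then miR-673-5p (rho 0.719, with a higher r of 0.706) and let-7d-5p (rho 0.710). miR-542-3p was closest to miR-382-3p (rho 0.908, r 0.863, permutation p = 2e-05 and 9e-05, adjusted 0.0211 and 0.0166), with r of 0.840 without Control replicate 2 and PTU replicate 3, then miR-376b-3p (rho 0.877) and miR-133a-5p (rho 0.864). miR-450a-5p was closest to miR-369-5p (rho 0.899, r 0.839, permutation p = 3e-05 and 0.00018, adjusted 0.0211 and 0.0243), with r of 0.773 without Control replicate 2 and Control replicate 7, then miR-499-5p (rho 0.886, with a higher r of 0.866) and miR-133a-5p (rho 0.877). Each of these was chosen as the highest of many, so the values describe the order and not an independent result. miR-542-3p had a rho of 0.666 with the library's total count, and the part of depth in these values was not tested.

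Among the seed relatives miR-16-5p was by far the most abundant. It averaged 92440 ± 15454 CPM in Control (SD, n = 8) and 97845 ± 34980 CPM in PTU (SD, n = 6), so the miR-322-5p level was under that of its relative in every library. miR-15b-5p averaged 456 ± 111 CPM and 712 ± 396 CPM, 0.64 ± 0.26 apart on the log2 scale (SE; edgeR's adjusted p 0.261). PTU replicate 6 was its highest library, and without that library the PTU mean was 556 ± 124 CPM (SD, n = 5). Log2 fold changes of the relatives are given with all 14 libraries only. miR-195-5p and miR-497-5p, both encoded on chromosome 10, had -0.19 ± 0.15 and -0.27 ± 0.15 (SE; adjusted p = 0.595 and 0.451, edgeR). For the miR-351-5p seed, miR-125a-5p had 0.14 ± 0.24 and miR-125b-5p 0.07 ± 0.20 (SE; adjusted p = 0.870 and 0.925, edgeR). Of the 6 relatives 0 were called in either direction.

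In the authors' deposited table the 10 members also had no FDR under 0.05. The authors' deposited table gives miR-322-5p a log2 fold change of 0.81, a p-value of 0.0503 and an FDR of 0.401, rank 46 by p-value among the 375. The next members in the authors' deposited table were miR-542-5p (-0.20, p-value 0.193) and miR-503-5p (0.19, p-value 0.265). The mean counts of miR-322-5p in the authors' deposited table, 1274 in PTU and 555 in Control, include the 4733 counts of PTU replicate 6, against at most 1011 elsewhere.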

How the data were processed

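Per the labels' protocols, serum RNA went through a Qiagen serum kit, then QIAseq library preparation with 22 PCR cycles. That kit adds molecular identifiers, and the sources used here do not say whether the deposited counts are molecules or reads, so intervals cover counting error only. The authors deposited raw whole-number counts per mature miRNA, beside a log2 fold change, an average log2 CPM, a p-value with its FDR, and group mean counts (a linear signal deposited by the authors). Per the submitters' processing notes they used edgeR (no version stated). Aligner, miRNA reference and low-count filter: not given in the sources used here.

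Each column was assigned through the identifier its sample's title carries. No libraries of a group were near sampling noise (smallest chi-square per degree of freedom 21.7). Counts were tested with edgeR 4.0.16 in R 4.3.3 (filterByExpr, 357 kept and 18 left out; TMM; quasi-likelihood test over 14 libraries, no covariate). log2 CPM used a prior count of 2, arm ratios an offset of 0.5. Alternatives were other scalings and filters, DESeq2 1.42.0, limma-voom 3.58.1, the likelihood ratio test, a replicate block, another offset, and each library left out. A count of 3 equals 1.42 to 6.62 CPM. The code was tested on simulated data. The members and lists were chosen with earlier results of these data known. All members were named, with seed relatives and, for the more abundant arm of each hairpin, the 3 miRNAs of highest Spearman rho; further names, the relation to library totals and the comparisons of PTU replicate 6 were chosen after the values were seen. Exact permutation tests enumerated every assignment, 3003 with all 14 libraries and fewer where a library was left out. No genome build is named by the files, so no coordinates are given.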

Additional observations from a re-analysis of the deposited data

Results flagged for a closer look

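Within a group, 4 of 32 sets of values held a library far from the rest by Dixon's criterion, whose nominal rate is about 1 in 20. The sets are not independent, since an arm ratio is formed from the levels of its arms. The count is therefore not a measure of excess over that rate. The share of all tested miRNAs flagged in this way was not counted. miR-322-5p was at 11.71 log2 CPM in PTU replicate 6, the highest of its group by 84.4% of the range. miR-322-3p was at 9.16 log2 CPM in the same library, the lowest of its group. The log2 arm ratio of miR-322 was 2.55 there, the highest of its group. miR-351-3p was at 6.06 log2 CPM in Control replicate 2, the lowest of its group, in the Control library with the largest total count.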

How the results depend on the processing

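Across 15 member and arm ratio results and 313 alternative values, 0 passed the adjusted threshold, and 10 of the 15 kept their direction throughout. All miRNAs called numbered 0, but 1 with DESeq2, 3 with the likelihood ratio test and 0 to 1 with single libraries left out (1 without PTU replicate 5). Calls of arm ratios stayed at 0. The log2 fold change of miR-322-5p was -0.12 with limma-voom and ran from -0.30 to 0.95 with single libraries left out. With no scaling factors miR-351-3p had 0.0485 and miR-542-3p 0.0416. With upper-quartile factors miR-450a-5p had -0.0762. With single libraries left out miR-351-3p ran from -0.15 to 0.0676, miR-450a-5p from -0.0317 to 0.14, miR-542-3p from -0.21 to 0.0481 and the miR-322 arm ratio difference from -0.53 to 0.19. Correlated member pairs numbered 1 with upper-quartile factors, 1 with deviations from the group mean and 0 to 2 with single libraries left out (2 without PTU replicate 6). The share of all pairs passing in these settings was not counted, so these numbers have no background beside them. The share of the members differed by 0.114 percentage points, and by 0.0847 to 0.131 with single libraries left out. Replicate numbers did not pair the libraries (correlations of same-numbered deviations -0.249 to 0.287), and 1 of 6 PTU libraries correlated best with its own number. In a fit with the replicate block 0 miRNAs were called, miR-322-5p had 0.18, miR-351-3p 0.0043, miR-542-3p 0.0069, and the miR-322 arm ratio difference was -0.0388. Causes of these changes were not tested.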
